A study of Mus musculus with 61 samples.

Results

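The genes described here are the nuclear genes of the mitochondrial respiratory chain and ATP synthase. They were picked by name from the count table: symbols that begin with Nduf, Uqcr, Atp5 or Cox4 to Cox8, with Sdha, Sdhb, Sdhc, Sdhd and Cyc1 added and the muscle and brown fat forms Cox7a1 and Cox8b left out. The rule took 90 of 21169 genes, 43 for complex I, 4 for complex II, 9 for complex III, 16 for complex IV and 18 for complex V, and it used no measured value. By role they are 75 constitutive subunits, 7 assembly factors of complex I, 4 tissue or hypoxia isoforms and 1 supercomplex factor of complex IV, and 3 genes named for complex V that are not counted as subunits. Ndufa4 was placed in complex IV, to which its protein belongs.

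Complex I (NADH dehydrogenase) and complex II (succinate dehydrogenase) pass electrons to ubiquinone, complex III passes them on to cytochrome c, and complex IV (cytochrome c oxidase) passes them to oxygen. Complexes I, III and IV pump protons across the inner mitochondrial membrane, and complex V, the ATP synthase, uses that gradient to make ATP. White fat holds few mitochondria beside brown and beige fat, where Ucp1 lets protons back without making ATP.

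The RNA came from adipose tissue of mice of the 8 inbred founder strains of the Diversity Outbred population, labelled 129, AJ, B6, Cast, NOD, NZO, PWK and WSB. There were 7 libraries each of 129, AJ and Cast and 8 of each other strain, 61 in all. All mice had been given a high-fat, high-sugar diet, labelled as 45 percent fat. Depot, sex and age are not given in the labels used here, so they cannot be told apart from strain where they differ between strains.

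Total counts per library ran from 19851580 to 61277576. The summed level of 5 adipocyte markers lay between 3749 and 13851 CPM, the count relative to the library total, in all libraries. Over 300 CPM of 9 skeletal muscle markers were found in AJ replicates 3 and 4 and WSB replicate 1, and over 500 CPM of 6 liver markers in AJ replicate 8, Cast replicate 3 and PWK replicates 2, 4 and 7. Of 8 markers of testis and genital duct, Crisp1 alone is in the table. It was at 904, 302 and 1009 CPM in 129 replicates 6, 7 and 9, at 296 and 1038 CPM in B6 replicates 5 and 6 and at 1280 CPM in NOD replicate 6, and at most 9.48 CPM elsewhere. Where stated below, results are also given without these libraries. The labels number the libraries of a strain without saying in words that each is a separate mouse, so p-values measure the spread between libraries. Levels of members and of Ucp1, Xist, Cycs and Ppargc1a below are CPM scaled to the effective library size, on a log2 scale where stated. Xist lay at 393 CPM or more in some libraries of every strain and at 54.7 CPM or less in the rest. A gene is called when its adjusted p, from edgeR's quasi-likelihood test with Benjamini-Hochberg adjustment over 18603 genes, is under 0.05.

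The level of a complex, here and below, is the mean log2 CPM of its constitutive subunits. It was highest in WSB in complexes I to IV and was 7.47 in both WSB and PWK in complex V. In all 5 complexes it was lowest in NZO. Of the 75 constitutive subunits, 51 had their highest strain mean in WSB, 18 in PWK, 5 in Cast and 1 in 129, and 61 had their lowest in NZO. Strain was called in the F-test for 88 of the 89 members that passed the filter on low counts, beside 89.9% of all genes tested, so this share does not set the members apart. The exception was Cox6b2, the testis form of a complex IV subunit (adjusted p = 0.076). Strain accounted for a median of 49.9% of the variance in log2 CPM over members and 48.7% over all genes tested. The deposited estimates of 19 members were fractional in more than 50% of the libraries, as they would be if reads were shared with other genes, so their levels are uncertain. Of those named below, these are Ndufs1, Ndufb4, Uqcrc2, Cox5b, Cox7c, Cox7a2l, Atp5g1 and Atp5g2. The member that did not pass the filter was Atp5l2-ps, a copy of Atp5l with a mean of 0.037 CPM.

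**Figure D1:**
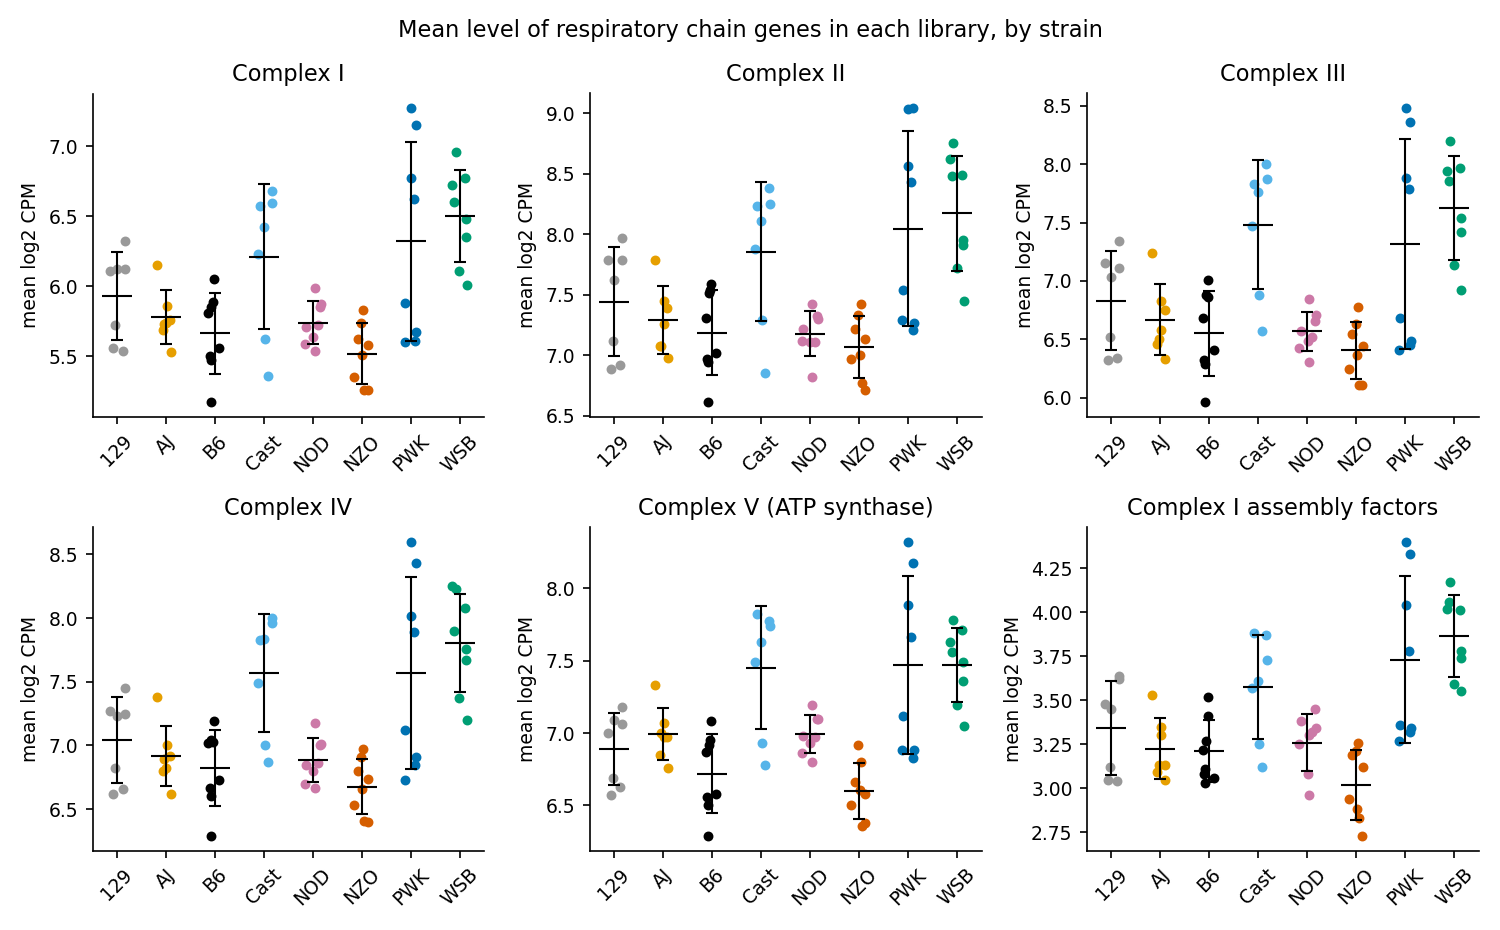
Mean log2 CPM of the constitutive subunits of each complex, and of the complex I assembly factors, in each library, by strain. Points are libraries, and bars are the strain mean and SD (n = 7 or 8). Every WSB library lies above every NZO library in all 6 panels, and PWK falls into 4 high and 4 low libraries.

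Against the mean of the other 7 strains, 80 members were called higher in WSB and 1 lower (Atp5g2, described with its copy below), where 49.3% of all genes were called, 25.6% higher and 23.7% lower. In NZO 76 members were called lower and 3 higher, where 53.9% of all genes were called, 26.6% lower and 27.2% higher. PWK had 69 called higher and 3 lower (background 43.6%, of which 24.6% and 19%), and Cast had 51 higher and 4 lower (background 56.2%, of which 29.6% and 26.6%). The median log2 fold change over members was 0.67 in WSB, 0.56 in PWK, 0.38 in Cast and -0.54 in NZO, while the median over all genes lay between -0.02 and 0.03 in these comparisons. Each comparison contains the libraries of all strains, so the strains' values are not independent of each other.

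The other strains gave smaller values. B6 had 33 members called, each of them lower (background 26.3%, of which 11.7% lower and 14.6% higher, median -0.37). NOD had 26 called lower and 2 higher (background 26.5%, of which 11.8% and 14.7%, median -0.32). AJ had 4 called higher and 2 lower (background 23%, of which 13.4% and 9.59%, median -0.26), and 129 had 2, Ndufaf5 and Atp5g2 both lower (background 18.6%, of which 7.78% lower, median -0.10). The B6 count depended on which libraries were used. It was 13, 11, 15 and 13 without B6 replicate 5, 6, 7 or 8 in turn, those with Xist at 6.91 CPM or less. It was 46 without B6 replicate 2, and 21 without the muscle-rich libraries of AJ and WSB. With log2 Xist as a covariate B6 had 60 called lower and 1 higher, and with DESeq2 45 and 1. Without the 6 libraries with over 100 CPM of Crisp1, a choice made after the data were seen, B6 had 6 members called and NOD 24. AJ had 11 and 129 had 3, and the median in 129 was 0.11. All of the libraries left out had Xist at 4.19 CPM or less. The 129 libraries that remained had Xist at 420 to 584 CPM, while B6 and NOD kept libraries of both kinds. In 129, Crisp1 and low Xist therefore cannot be told apart by this fit. The NOD count of 28 in both directions was 16 without NOD replicate 2 and 14 without NOD replicate 6. With log2 Ucp1 as a covariate, added after the data were seen, the direction in NOD turned, to 15 called higher and 2 lower with a median of 0.18. The AJ count of 6 was 10 without AJ replicate 3, and the 129 count was 1 without 129 replicate 6, 7 or 9.

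**Figure D2:**
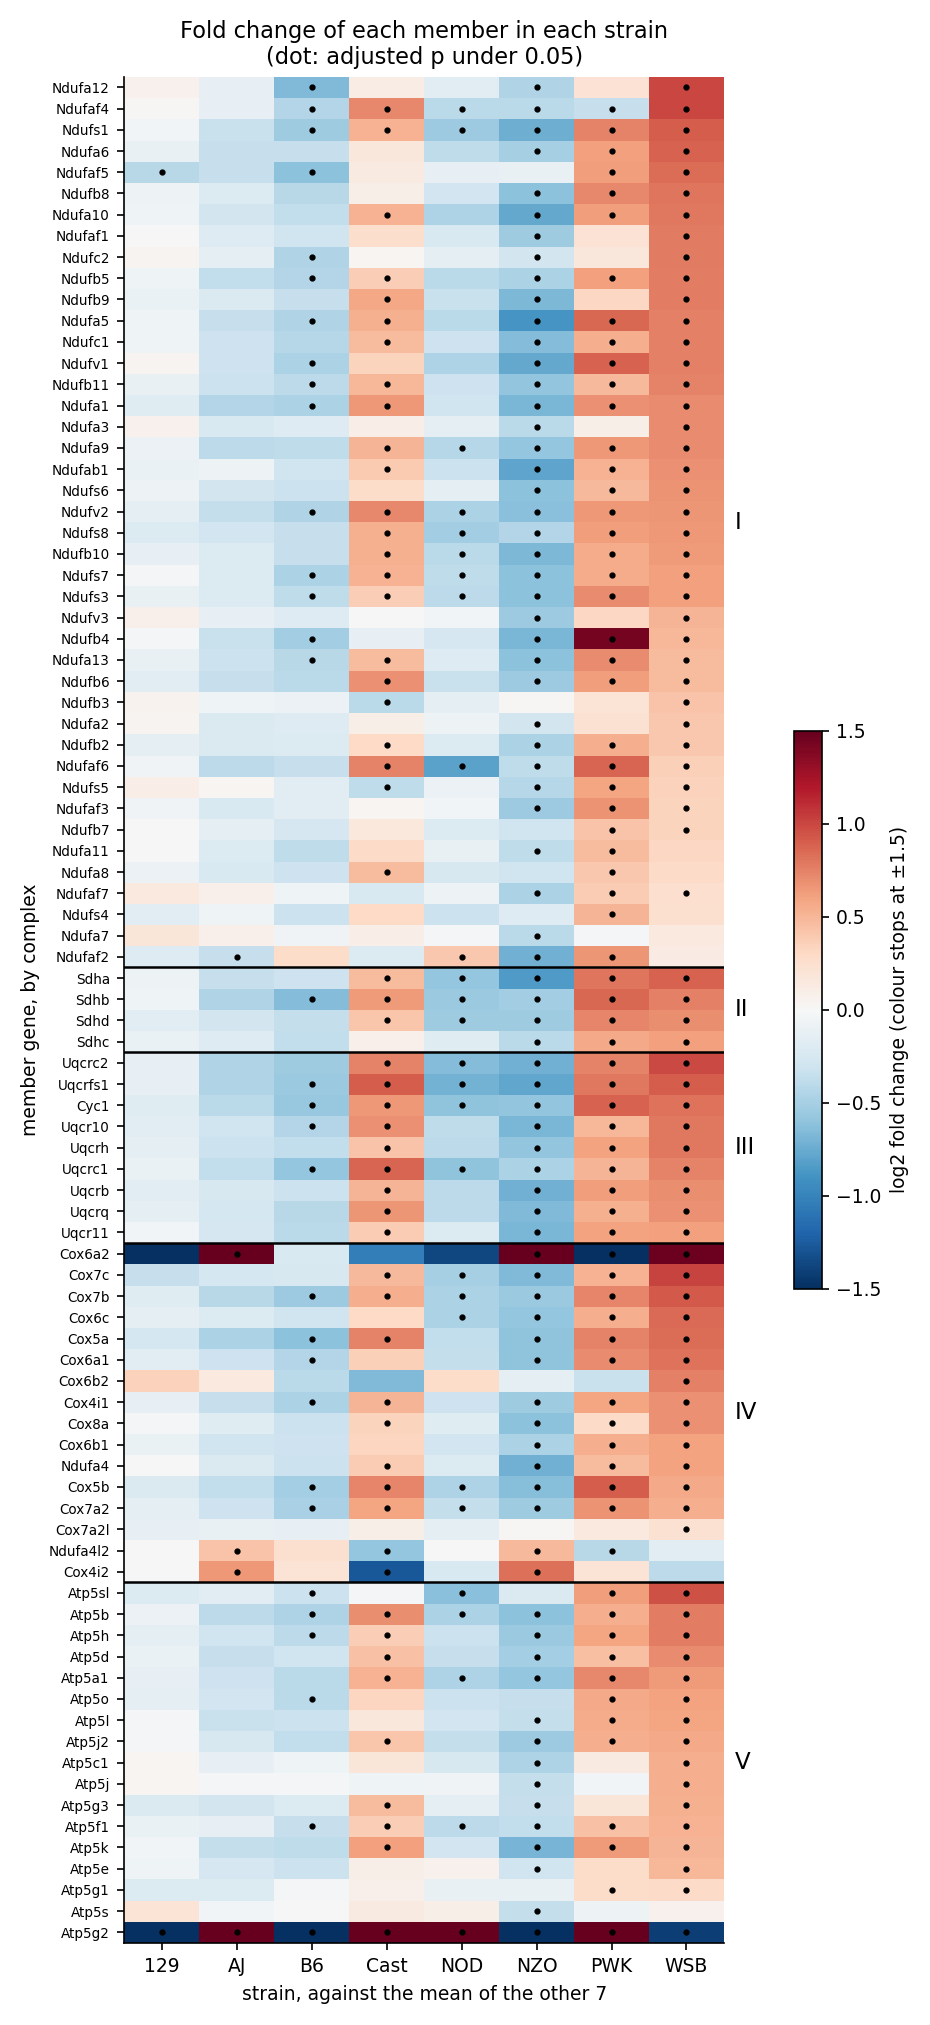
Log2 fold change of 88 members (rows, by complex, ordered by the value in WSB) in each strain against the mean of the other 7 strains (columns). A dot marks an adjusted p under 0.05, and the colour scale stops at ±1.5. WSB and NZO columns are nearly uniform in opposite directions, apart from Atp5g2, Cox4i2, Cox6a2 and Ndufa4l2.

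The direct comparison of WSB with NZO was chosen with earlier results of these data known. In it 82 members were called higher in WSB and 2 lower, where 55.9% of all genes were called, 27.9% higher and 28% lower, and the median log2 fold change was 1.06. Every WSB library lay above every NZO library for 60 of 89 members, beside 9.9% of all genes, and below for 1 (Cox4i2), beside 11.7%. By complex these were 32 of 43 members in complex I, 1 of 4 in complex II, 6 of 9 in complex III, 11 of 16 in complex IV and 10 of 17 in complex V.

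Some members hold promoter motifs, which the rule did not use. RefSeq gives a window from 250 bases before to 50 after a transcription start, on GRCm38.p6, for 73 of the 90 members. The palindrome at the core of sites for nuclear respiratory factor NRF1, whose letters are the capitals below, occurred in windows of 7 members (9.6%), beside 1.07% of the 27025 genes with a window. CCGGAAG, the core bound by ETS factors such as GABP, occurred in 17 members (23.3%) and 9.93% of all genes. AAGATGGC, the core of the YY1 site, occurred in 11 members (15.1%) and 3.19% of all genes. Each motif was searched on both strands, no motif contains another, and 32 members held at least 1 of the 3. A match describes letters only.

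The 5 palindromes that lie with 30 bases on each side before the start are shown because they belong to genes of complexes I, IV and V and to an assembly factor. Capitals mark the palindrome, and each window is written 5′ to 3′ on the gene's strand.
Ndufa11: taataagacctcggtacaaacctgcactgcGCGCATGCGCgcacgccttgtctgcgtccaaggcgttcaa
Ndufaf4: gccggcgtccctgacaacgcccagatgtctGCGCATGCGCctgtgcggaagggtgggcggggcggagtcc
Cox6a1: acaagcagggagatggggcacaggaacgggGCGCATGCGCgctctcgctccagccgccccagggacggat
Atp5k: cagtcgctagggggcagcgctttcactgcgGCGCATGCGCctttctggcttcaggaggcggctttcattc
Atp5g2: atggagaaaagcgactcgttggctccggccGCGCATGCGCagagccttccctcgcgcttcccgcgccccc
They lie at chr17:56717672-56717741 (plus strand), chr4:24897940-24898009 (plus), chr5:115349081-115349150 (minus), chr5:108434410-108434479 (minus) and chr15:102671050-102671119 (minus). From the first base of the palindrome to the RefSeq start there are 60 bases in Ndufa11, 113 in Ndufaf4, 162 in Cox6a1, 50 in Atp5k and 42 in Atp5g2. By the deposited gene coordinates, the Atp5g2 window lies inside its gene, whose span reaches 102672352. The Atp5k window overlaps its gene, whose span reaches 108434448. The remaining palindromes, in Ndufaf5 and Uqcrc1, lie after the start.

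Complex I had 38 of 43 members called higher in WSB and 38 called lower in NZO. Over its 36 constitutive subunits, the mean log2 CPM was lowest 6.01, median 6.54 and highest 6.96 in WSB. In NZO this mean was 5.26, 5.54 and 5.83, so the groups did not overlap. All 7 core subunits, which carry the flavin, the iron-sulfur clusters and the quinone site, were called higher in WSB (median 0.66) and lower in NZO (median -0.63). Of the 29 accessory subunits, 25 were called higher in WSB and 25 lower in NZO, with medians of 0.67 and -0.54.

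Ndufs1, the largest core subunit, had 159, 278 and 460 CPM (lowest, median, highest) in WSB and 85.4, 109 and 144 CPM in NZO. The ranges did not overlap, and the log2 fold change of WSB against NZO was 1.43 ± 0.24 (SE, adjusted p = 1.14e-06). Ndufa5, an accessory subunit of the matrix arm, fell most in NZO within complex I, at 15.7, 19.5 and 25 CPM there, by 0.89 on the log2 scale (SE 0.17, adjusted p = 1.06e-05). It had 38.8, 54.7 and 71.3 CPM in WSB, again with no overlap with NZO. Ndufa12, another accessory subunit, had a rise in WSB matched in complex I only by Ndufaf4, at 70.1, 118 and 139 CPM, with a log2 fold change of 1.00 ± 0.12 (adjusted p = 1.4e-09).

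Members of complex I near the other end changed less. Ndufa7 had a median of 62.2 CPM in WSB and 62.6 CPM in 129, and its log2 fold change in WSB was 0.15 ± 0.10 (adjusted p = 0.232). It still fell in NZO, by 0.40 (adjusted p = 0.00166). Ndufb3 and Ndufs5, both small accessory subunits, were called lower in Cast, where 22 other members of the complex were called higher. Ndufb3 had 23.8, 66.7 and 78.5 CPM in Cast, and its log2 fold change was -0.41 ± 0.16 (adjusted p = 0.022). Ndufs5 had 22, 52.5 and 61 CPM in Cast, and its log2 fold change was -0.38 ± 0.14 (adjusted p = 0.0207). In both genes the Cast range overlapped those of other strains, and the Cast medians lay near those of B6, 65.8 and 52.1 CPM. The lowest Cast libraries were replicates 5 and 6, at 23.8 and 26.9 CPM of Ndufb3 and 22 and 27 CPM of Ndufs5.

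The 7 assembly factors of complex I, which build the enzyme and are not part of it, had a median log2 fold change of 0.36 in WSB, with 6 called higher, and -0.48 in NZO, with 6 called lower. Ndufaf4 was the member of complex I that was called lower in PWK. It had 8.37, 15.4 and 27.3 CPM in PWK, 25.5, 34.6 and 38.4 CPM in Cast and 23.2, 37.7 and 60.5 CPM in WSB. Its log2 fold change was -0.35 ± 0.14 in PWK (adjusted p = 0.0408), 0.72 ± 0.14 in Cast (adjusted p = 1.02e-05) and 1.00 ± 0.13 in WSB (adjusted p = 3.61e-09). Ndufaf2, at 6.19, 7.23 and 8.52 CPM in NOD, was the member of complex I called higher there, with a log2 fold change of 0.40 ± 0.11 (adjusted p = 0.0058). Ndufaf6 went the other way in NOD, at 1.36, 2.18 and 2.74 CPM, and fell by 0.80 (SE 0.16, adjusted p = 6.23e-05).

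Complex II is the enzyme that also serves the citric acid cycle. All 4 genes were called higher in WSB and in PWK and lower in NZO, and their median log2 fold changes were 0.73, 0.77 and -0.53. Sdha, the flavoprotein, had 469, 882 and 1297 CPM in WSB and 234, 310 and 404 CPM in NZO. These ranges did not overlap, and the log2 fold change between the strains was 1.52 ± 0.25 (adjusted p = 9.14e-07), the largest of any member. Sdhb, the iron-sulfur subunit, had 114, 212 and 319 CPM in WSB against 70.6, 99.7 and 123 CPM in NZO, where the ranges overlapped. For it the log2 fold change was 1.12 ± 0.25 (adjusted p = 0.000171). The membrane anchors Sdhc and Sdhd differed by 0.89 ± 0.20 and 1.08 ± 0.22.

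Complex III had the largest median difference between WSB and NZO, 1.23, and all 9 members were called in WSB, NZO, PWK and Cast. No test set the complexes against each other. The core subunits, which are the cytochrome c1 gene Cyc1, the Rieske protein gene Uqcrfs1 and the core protein genes Uqcrc1 and Uqcrc2, had a median of 0.87 in WSB, 0.81 in Cast and -0.66 in NZO. Uqcrc2 had 184, 350 and 514 CPM in WSB and 102, 123 and 159 CPM in NZO, with no overlap, and its log2 fold change in WSB was 0.99 ± 0.18 (adjusted p = 1.08e-05). Uqcrfs1 had 151, 334 and 414 CPM in Cast, 149, 289 and 445 CPM in WSB and 81.9, 103 and 138 CPM in NZO. The Cast and WSB ranges lay above that of NZO, and the log2 fold change in Cast was 0.91 ± 0.19 (adjusted p = 4.3e-05). Uqcrc1 differed least of the complex between WSB and NZO, by 1.07 ± 0.25, and its lowest strain mean was in NOD.

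In complex IV the 11 constitutive subunits were called in the same directions. Of the 4 isoforms, Cox4i2, Ndufa4l2 and Cox6a2 were called against the median of the complex in some comparisons. All 11 were called higher in WSB and in PWK and lower in NZO, with medians of 0.69, 0.59 and -0.60. Cox7c, a small subunit, had 127, 203 and 380 CPM in WSB and 64.2, 78.6 and 95.8 CPM in NZO. The ranges did not overlap, and its log2 fold change was 1.46 ± 0.21 between these strains (adjusted p = 2.68e-08). Cox4i1, the ubiquitous form of subunit 4, had 383, 582 and 708 CPM in WSB and 210, 266 and 328 CPM in NZO, with a log2 fold change of 1.07 ± 0.19 (adjusted p = 3.51e-06).

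Cox4i2, the form of subunit 4 known from lung and from cells short of oxygen, had the opposite order. It had 2.65, 3.36 and 5.71 CPM in NZO, 1.27, 1.72 and 2.08 CPM in WSB and 0.202, 1.08 and 1.96 CPM in Cast. Every NZO library lay above every WSB and Cast library. The log2 fold change was 0.83 ± 0.16 in NZO (adjusted p = 1.74e-05), 0.65 ± 0.17 in AJ (adjusted p = 0.0036) and -1.27 ± 0.21 in Cast (adjusted p = 4.97e-07). Ndufa4l2, a paralog of Ndufa4 that is known to be induced by hypoxia, had 7.26, 9.26 and 12.8 CPM in NZO, 3.81, 5.11 and 7.51 CPM in Cast and 3.19, 5.88 and 7.03 CPM in PWK. PWK lay wholly below NZO, and Cast overlapped it slightly. It was called higher in NZO (0.49 ± 0.10, adjusted p = 2.55e-05) and AJ (0.43 ± 0.10), and lower in Cast (-0.58 ± 0.11) and PWK (-0.42 ± 0.10). Ndufa4 itself was called lower in NZO, by 0.72 (SE 0.14, adjusted p = 3.25e-05). Macrophage markers also moved with NZO: the sum of 7 of them was 2090 to 5898 CPM there and 337 to 2621 CPM in the other strains, and their part in these results was not tested.

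**Figure D3:**
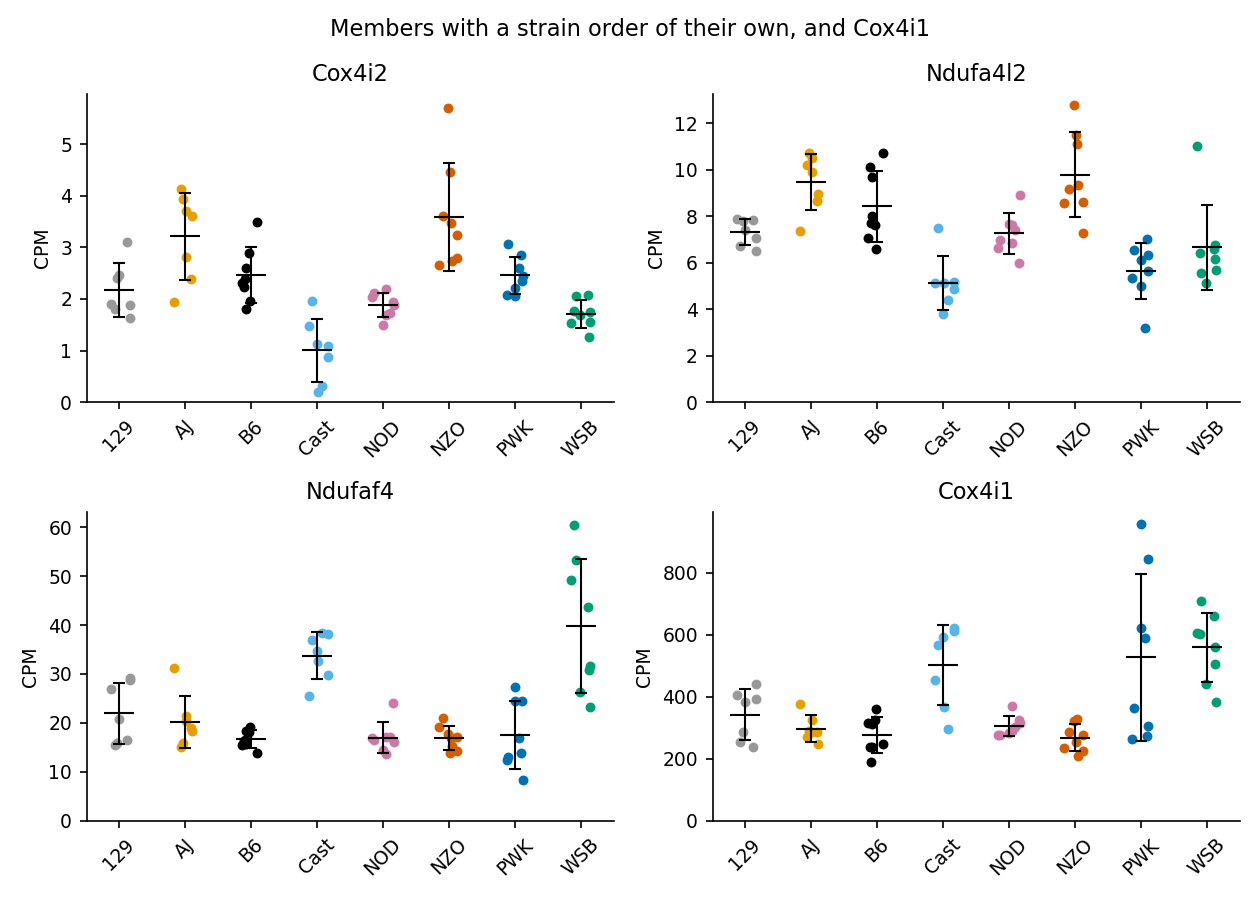
CPM of Cox4i2, Ndufa4l2, Ndufaf4 and, for comparison, Cox4i1 in each library, by strain. Points are libraries, and bars are the strain mean and SD. Cox4i2 and Ndufa4l2 have their highest mean in NZO and their lowest in Cast, while Cox4i1 has its lowest in NZO.

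Cox6a2 and Cox6b2, the muscle and testis forms, were near the floor of detection. Cox6a2 reached 2.56 and 5.58 CPM in the muscle-rich AJ replicates 3 and 4 and 1.6 CPM in the muscle-rich WSB replicate 1, and lay between 0 and 1.38 CPM elsewhere. Its log2 fold change of 3.22 ± 0.58 in AJ (adjusted p = 1.99e-05) became -0.25 (adjusted p = 0.876) without the muscle-rich libraries. NZO had 0.264, 0.66 and 0.897 CPM of Cox6a2 with muscle markers at 3.37 to 28.4 CPM, and a log2 fold change of 2.07 ± 0.60 (adjusted p = 0.00293). In PWK, at 0 to 0.117 CPM, Cox6a2 was called lower, with a log2 fold change of -2.16, where the median of complex IV was 0.53. In WSB Cox6a2 (1.47 ± 0.63, adjusted p = 0.0493) and Cox6b2 (0.76 ± 0.29, adjusted p = 0.0227) were called higher, in the direction of the constitutive subunits. WSB replicates 1 and 9 held Cox6a2 at 1.6 and 1.38 CPM, with muscle markers at 552 and 270 CPM, while the WSB median of Cox6a2 was 0.0937 CPM. With many libraries of Cox6a2 listed at 0, its folds depend on the prior count. Cox7a2l, a factor that joins complexes III and IV into supercomplexes, was nearly flat, at 79.5, 104 and 129 CPM in WSB and 81.5, 88.8 and 117 CPM in NZO. It was called in WSB alone of the 8 strains (0.23 ± 0.07, adjusted p = 0.00858), and not between WSB and NZO (0.18 ± 0.10, adjusted p = 0.114).

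Complex V had the smallest median difference between WSB and NZO, 0.82, with all 17 tested members called. The 5 genes of the catalytic F1 part had a median of 0.64 in WSB and -0.51 in NZO, and the 7 stalk and membrane genes 0.57 and -0.37. Atp5b, the catalytic subunit, had 1462, 2428 and 3310 CPM in WSB and 740, 1044 and 1376 CPM in NZO, without overlap. Its log2 fold change was 1.22 ± 0.23 (adjusted p = 7.42e-06). Atp5j, coupling factor 6 of the stalk, had 101, 132 and 139 CPM in WSB and 63.3, 75.2 and 84.7 CPM in NZO. Its range in B6, 67.8 to 113 CPM, overlapped both. In the other 6 strains the log2 fold changes of Atp5j lay between -0.06 and 0.03, and none was called.

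Per kilobase of exon, mean levels of constitutive subunits over the 8 strain means had a median of 43.5 CPM in complex I, 86.7 in complex II, 106 in complex III, 111 in complex IV and 72 in complex V. Within complexes they ran from 5.1 (Ndufb2) to 116 (Ndufa1) in complex I, from 41.8 (Cox5a) to 399 (Cox8a) in complex IV and from 5.82 (Atp5g1) to 382 (Atp5b) in complex V. Lengths are of merged exons, so a gene with long rare exons is given too low.

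The c subunit of the ATP synthase ring is encoded by 3 genes, Atp5g1, Atp5g2 and Atp5g3, which give the same mature protein with different targeting peptides. Atp5g2 (chr15:102662864-102672352, minus strand) had 3.51, 4.94 and 8.22 CPM in B6 and 5.73, 9.6 and 11.7 CPM in WSB, with 129 and NZO between 3.51 and 8.41 CPM. In PWK it had 59.8, 85.8 and 128 CPM, and in AJ, Cast and NOD between 54.6 and 111 CPM. The ranges of 129, B6, NZO and WSB did not overlap those of AJ, Cast, NOD and PWK, and strain accounted for 97% of its variance, the highest share of any member. Its log2 fold change was 2.32 ± 0.10 in PWK and -2.30 ± 0.15 in NZO (adjusted p = 1.1e-26 and 4.13e-19).

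A transcribed copy, Gm10175 (chr7:23946646-23947290), had the mirror image. Over 645 aligned bases its transcript was 100% identical to that of Atp5g2, and there were 0 differences over the 441 coding bases. The first 90 coding bases are shown for that reason, from GENCODE transcripts of build GRCm38.
Atp5g2: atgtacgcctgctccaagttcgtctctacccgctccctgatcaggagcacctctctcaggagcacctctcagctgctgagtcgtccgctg
Gm10175: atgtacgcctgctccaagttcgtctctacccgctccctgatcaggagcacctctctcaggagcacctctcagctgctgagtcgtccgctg
Gm10175 had 44.9 to 99.4 CPM in 129, B6, NZO and WSB and 0 to 3.92 CPM in AJ, Cast, NOD and PWK. Summed, the genes had a median of 104 CPM in WSB, 88.1 in PWK, 88.9 in Cast and 63 in NZO. With the counts summed, a choice made after the data were seen, the log2 fold change was 0.45 in WSB (adjusted p = 4.75e-05), 0.35 in PWK (adjusted p = 0.0015) and -0.25 in NZO (adjusted p = 0.0259). The deposited counts cannot tell reads of identical stretches apart, and whether the pattern of Atp5g2 alone is one of expression was not tested.

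**Figure D4:**
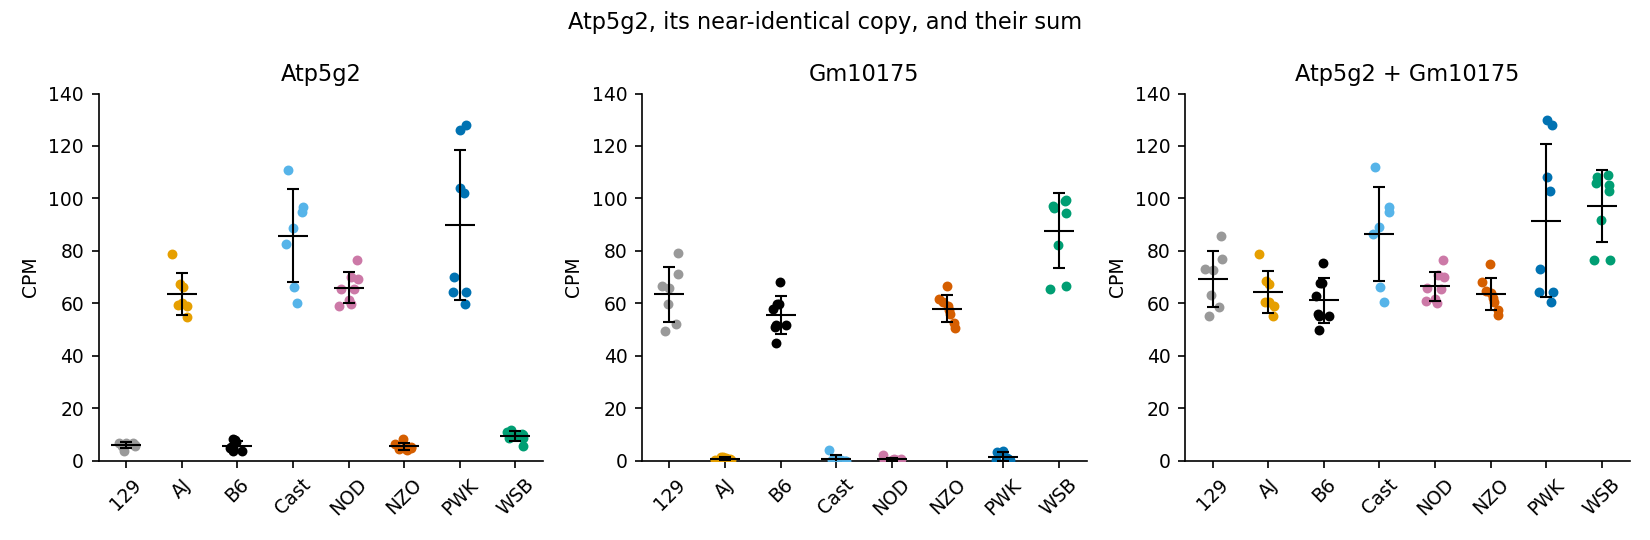
CPM of Atp5g2, of its copy Gm10175 and of their sum in each library, by strain. Points are libraries, and bars are the strain mean and SD. The first 2 panels mirror each other across strains, and the sum lies between 49.7 and 130 CPM in all libraries.

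The other c subunit genes had no copy in the table at 95% identity. Atp5g3 had 256, 315 and 403 CPM in WSB and 141, 182 and 264 CPM in NZO, which overlapped slightly, with a log2 fold change of 0.76 ± 0.15 (adjusted p = 1.4e-05). Atp5g1 had 25.4, 31.9 and 45.3 CPM in WSB and 22, 25.9 and 31 CPM in NZO, and changed least of complex V, by 0.35 ± 0.12 (adjusted p = 0.0143).

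In all, 9 members have a near-identical copy in the table. Ndufb4, an accessory subunit of complex I, had 40.5, 62.5 and 112 CPM in PWK and at most 59.9 CPM elsewhere, with a log2 fold change of 1.44 ± 0.12 in PWK (adjusted p = 1.01e-14). Its copy Gm3244 (chr15:73809507-73809896, 100% identical over 390 bases) had a mean of 0.23 CPM in PWK and 28.9 to 48 CPM in the other strains. With the counts summed, the value in PWK was 0.16 (adjusted p = 0.324). Cox5b had a copy, Gm11273 (chr13:21501029-21501418, 99.23% identical over 390 bases), with means of 0.146 CPM in Cast, 0.256 CPM in PWK and 10.1 to 24.3 CPM elsewhere. Its log2 fold change in Cast was 0.73 ± 0.15 alone and 0.50 with the copy.

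Ucp1, the marker of heat-producing fat cells, is given here beside complex I, library by library. In PWK, replicates 1, 2, 6 and 7 had a mean complex I level of 6.77, 7.27, 6.62 and 7.15 on the log2 scale and Ucp1 at 422, 920, 1052 and 1206 CPM. PWK replicates 3, 4, 5 and 9 had 5.61, 5.60, 5.67 and 5.88, with Ucp1 at 6.86, 0.457, 0.131 and 1.64 CPM. PWK had the widest spread of the strains (SD 0.71, n = 8), and its 4 low libraries lay at 5.60 to 5.88, beside 5.26 to 5.83 in NZO. Xist was 482 to 607 CPM in the high and 0.241 to 6.03 CPM in the low PWK libraries. The labels give no sex. With log2 Xist as a covariate, PWK had 68 members called higher and 2 lower, with a median of 0.48. The fit with Ucp1 as a covariate is given below. Beyond these fits, the part of Xist, Ucp1 or brown and beige fat cells in these results was not tested. In bulk tissue, fewer cells of a type and less RNA per cell cannot be told apart.

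PWK replicates 2, 4 and 7 are also among the liver-rich libraries, and without the 5 such libraries the PWK calls fell from 69 higher and 3 lower to 17 higher and 2 lower, with a median of 0.28. In Cast, replicates 1, 2 and 3 had complex I at 6.42, 6.59 and 6.68 with Ucp1 at 212, 1049 and 1505 CPM and Xist at 430 to 719 CPM. Replicates 7 and 8 had 6.57 and 6.23 with Ucp1 at 27.4 and 105 CPM and Xist at 0.902 and 54.7 CPM. Replicates 5 and 6 had 5.36 and 5.62 with Ucp1 at 3.55 and 8.84 CPM. Their adipocyte markers were at 3749 and 7002 CPM and their macrophage markers at 1754 and 1644 CPM. The part of these markers in the levels of both libraries was not tested.

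Libraries of WSB, 129 and B6 also fell into sets by replicate. WSB replicates 1, 3, 4 and 9 had complex I at 6.77, 6.6, 6.72 and 6.96. In these libraries Ucp1 was at 651 to 1872 CPM and Xist at 393 to 527 CPM. WSB replicates 5, 6, 7 and 8 had complex I at 6.48, 6.35, 6.01 and 6.11, Ucp1 at 10.5, 5.44, 4 and 6.31 CPM and Xist at 3.88 CPM or less. In 129, replicates 1 to 4 had complex I at 6.11 to 6.32 and Xist at 420 to 584 CPM, and replicates 6, 7 and 9, those with Crisp1, had 5.54 to 5.72 and at most 4.19 CPM. B6 replicates 1 to 4 had complex I at 5.81 to 6.05 and Xist at 413 to 612 CPM, and replicates 5 to 8 had 5.17 to 5.56 and at most 6.91 CPM. The means of these strains therefore join libraries of unlike level. In NZO complex I was 5.26 to 5.74 in replicates 1 to 4, with Xist at 450 to 668 CPM. It was 5.26 to 5.83 in replicates 5 to 8, with Xist at most 2.11 CPM, so the NZO sets overlapped. Ucp1 lay at 26.9 to 73.5 CPM in NZO. The NOD sets also overlapped, with complex I at 5.64 to 5.99 in replicates 1 to 4 and 5.54 to 5.85 in replicates 5 to 8. AJ replicates 2 to 4 had 5.76 to 6.15, and AJ replicates 1, 5, 6 and 8 had 5.53 to 5.74. In the fit with log2 Ucp1 as a covariate, 76 members were called higher in WSB and 81 lower in NZO. PWK had 70 called higher and 2 lower in that fit (median 0.44), beside 69 and 3 without the covariate (median 0.56). Cast had 40 called higher and 8 lower (median 0.19), beside 51 and 4 (median 0.38). With summed adipocyte markers as a covariate, 70 were called higher in WSB and 35 lower in NZO. Adipocyte markers summed to 10053 to 13078 CPM in WSB and 4974 to 9892 CPM in NZO.

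**Figure D5:**
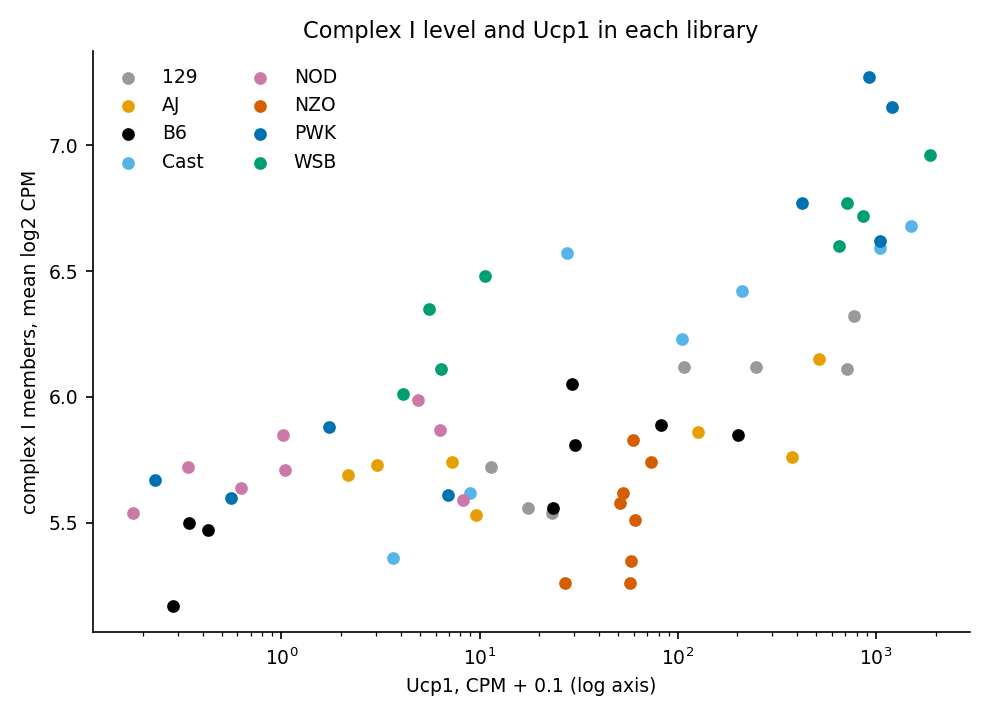
Mean log2 CPM of the constitutive complex I subunits against Ucp1 (CPM + 0.1, log axis) in each library, coloured by strain. WSB replicates 5 to 8 lie at 6.01 to 6.48 on the vertical axis and NZO libraries at 5.26 to 5.83, and the PWK libraries form 2 separate groups.

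Other genes of the pathway were read from lists chosen with earlier results known. Over all genes tested, 25.6% were called higher in WSB and 23.7% lower, and in NZO 27.2% were called higher and 26.6% lower. Of 13 mitochondrially encoded subunits, 12 were called higher in WSB (median 0.81), and 11 were called lower in NZO. The gene called higher in NZO was mt-Co2, at 1.25 ± 0.25, whose estimates were fractional, so its value is uncertain. Of 13 citric acid cycle genes, 13 were called higher in WSB (median 0.76) and 10 lower in NZO (median -0.58), among them Ogdh, a subunit of oxoglutarate dehydrogenase, at 0.76 and -0.77. Of 11 coenzyme Q genes, 9 were called higher in WSB and 8 lower in NZO, with medians of 0.76 and -0.62. Of 37 further assembly genes, 28 were called higher in WSB and 22 lower in NZO, with medians of 0.37 and -0.34, and Lyrm7, a chaperone of the Rieske protein, was called higher in NZO (1.45 ± 0.15).

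Among 11 other subunits and carriers, 10 were called higher in WSB and 8 lower in NZO. Cycs, the cytochrome c that carries electrons between complexes III and IV, rose most in Cast, by 1.78 ± 0.15 (adjusted p = 2.36e-15). It was at 217 to 487 CPM there and 55.1 to 92.6 CPM in NZO. The ranges of PWK, 81.3 to 352 CPM, and WSB, 103 to 228 CPM, overlapped that of Cast. Atpif1, the inhibitor of the ATP synthase, was called higher in NZO (0.59 ± 0.11, adjusted p = 4.63e-06), where 14 of 17 complex V members were called lower. Of 14 regulators, 12 were called higher in Cast, 7 in WSB, and 3 higher and 5 lower in NZO. The shares over all genes were 29.6% higher in Cast, 25.6% higher in WSB, and 27.2% higher and 26.6% lower in NZO. The NZO counts lie near these shares and do not set the regulators apart. Ppargc1a, a coactivator of mitochondrial genes, had 10.3 to 47.2 CPM in WSB and 3.81 to 7.14 CPM in NZO, without overlap, and a log2 fold change of 2.53 ± 0.40 (adjusted p = 3.3e-07). Nrf1, which encodes the factor that binds the palindrome shown above, did not differ detectably between these strains (-0.16 ± 0.09, adjusted p = 0.107).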

How the data were processed

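The authors deposited expected counts, which are read estimates for 21169 genes in 61 libraries, and log2 values, variance-stabilised per the table's name. The submitters' processing notes name GRCm38 and DESeq2, whose role is not stated. Libraries were made from poly(A) RNA, per the labels' protocols. Aligner and counter: not given in the sources used here. Of the deposited expected counts, 21.1% were not whole within 1e-06, and whether the authors divided reads among genes is not stated.

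Expected counts were rounded, filtered with filterByExpr by strain (2566 genes set aside), scaled (TMM) and modelled with edgeR 4.0.16 (R 4.3.3), using 1 mean per strain and robust quasi-likelihood dispersion. Tests were 2-sided. Each strain was set against the unweighted mean of the other 7, all strains were compared in an F-test, and WSB was compared with NZO. SE is the fold change divided by the root of F. Log2 CPM use a prior count of 2, and marker sums are CPM of the library total. Alternatives were RLE, no filter, a mean of at least 5 CPM, DESeq2 1.42.0, limma 3.58.1 on the deposited log2 values, a replicate block, Xist, adipocyte markers or Ucp1 as covariates, counts summed with copies, and fits without read-sharing genes, marker-rich libraries or each library. Copies are pairs of GENCODE transcripts that blastn aligned over 50% or more of the shorter transcript with an identity of 95% or more. The test was tried on simulated data.

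The members, lists and the comparison of WSB with NZO were chosen with earlier results of these data known. Members named in the text are those with the highest or lowest called fold change of their complex in WSB, NZO and comparisons with over 20% of members called, the 8 with the largest variance between strains, those called against the median of their complex or over 0.7 from it, isoform sets and the member not tested. Ndufs1, Atp5j, Ndufb2, Ndufa1 and the members in the promoter paragraph were also named after their values were seen. The Ucp1 covariate, the summing of copies and the fit without libraries rich in Crisp1 were chosen after seeing the data. The values of 1 member are not reported here, though it enters the counts and medians.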

Additional observations from a re-analysis of the deposited data

Results flagged for a closer look

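Within strains of 7 or 8 libraries, the highest or lowest library was compared with its nearest neighbour relative to the range, over 144 groups of values (6 complex means and 12 members in 8 strains). Chance sets apart about 1 in 20 groups by this measure, and 8 were set apart, each of them a member and not a complex mean. No cause was tested for any of them.

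Ndufa4l2 was set apart in PWK, where replicate 6 had 1.70 log2 CPM and the next library 2.33, and in WSB, where replicate 4 had 3.47 and the next 2.76. Ndufaf4 was high in NOD replicate 7, at 4.59 beside 4.10. Ndufb4 was low in AJ replicate 4, at 4.28 beside 4.51, and Ndufb3 was low in AJ replicate 8, at 5.86 beside 6.06. Atp5g2 was low in 129 replicate 7, at 1.83 beside 2.52, and in WSB replicate 6, at 2.53 beside 3.10. Cox7a2l was high in NZO replicate 2, at 6.86 beside 6.59.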

How the results depend on the processing

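The counts of members called in WSB, in PWK (apart from the fit without liver-rich libraries), in Cast, between WSB and NZO and in the F-test stayed within 1.5 times of the value reported under every alternative run. The counts that moved further were these. With Ucp1 as a covariate, added after the data were seen, 129 had 51, AJ 40, B6 13 and NOD 17 members called, against 2, 6, 33 and 28, and in NOD 15 of the 17 were higher. With Xist as a covariate AJ had 13, B6 61 and NOD 43. With adipocyte markers as a covariate NZO had 37 against 79. Without liver-rich libraries PWK had 19 against 72, and without muscle-rich libraries B6 had 21. Without the libraries with over 100 CPM of Crisp1, added after the data were seen, B6 had 6 and AJ 11. In 129 the count was 1 without genes that share reads and with copies summed. Leaving out 1 library of the strain in turn gave 1 to 2 members called in 129, 4 to 10 in AJ, 11 to 46 in B6, 39 to 62 in Cast, 14 to 29 in NOD, 69 to 81 in NZO, 55 to 77 in PWK, 74 to 83 in WSB and 83 to 86 between WSB and NZO. The causes were not tested.

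For the 233 called fold changes of named members, 18 values under the alternatives other than leaving out 1 library turned in sign, 178 kept the direction but missed the threshold and 3002 kept both. With 1 library left out, 189 values missed the threshold and 1968 kept both. The Ucp1 covariate turned 14 values in NOD, among them Atp5b to 0.14, Cox5b 0.09, Cox7a2 0.02, Cox7b 0.19, Cox7c 0.04, Cyc1 0.15, Ndufs3 0.09, Sdha 0.12, Sdhb 0.16, Sdhd 0.08, Uqcrc1 0.11, Uqcrc2 0.12 and Uqcrfs1 0.03, and the median over members there to 0.18. Summing copies turned Atp5g2 to -0.23 in AJ, -0.17 in NOD and 0.45 in WSB. Leaving out muscle-rich libraries turned Cox6a2 in AJ to -0.25.

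The libraries were treated as unpaired, since the labels tie no number to a shared animal or batch and not every pair of same-numbered libraries correlated above 0.1. The deviations of same-numbered libraries of different strains had a median correlation of 0.108 (from -0.444 to 0.56), and 96 of 186 pairs were over 0.1, beside a median of -0.018 and 418 of 1441 pairs with different numbers. Of the 61 libraries, 21 correlated best with one of their own number, a hint from the data that libraries of like number share something. Xist went with the number in 129, B6, NOD and NZO, at 413 CPM or more in replicates 1 to 4. It was at 6.91 CPM or less in their later replicates. In PWK, Xist was high in replicates 1, 2, 6 and 7 instead. The part of Xist in these correlations was not tested. With the replicate block the calls were 3 in 129, 5 in AJ, 41 in B6, 53 in Cast, 28 in NOD, 79 in NZO, 71 in PWK, 84 in WSB and 87 between WSB and NZO.

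Genes under a few CPM, such as Cox6a2 and Cox6b2, are limited by depth.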
